A study of Mus musculus with 5 samples.

Results

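The genes of the proteasome were followed in primary microglia, brain-resident macrophages, taken from mouse brain tissue. Rows of the gene count table were taken where the symbol starts with Psma to Psmg and a digit, and where at least 50 reads were summed over the 5 libraries. Of 50 matching rows among 21983 genes, 47 met that minimum. Psmd10, Psmb11 and Psme2b did not, with 0, 0 and 1 read in all. One of the 47, Psmc3ip, encodes a partner of the meiotic recombinase and is no proteasome subunit, although its symbol fits the pattern.

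The labels give 2 libraries of genotype Cx3cr1CreERT2 Ythdf2fl/fl, in which a tamoxifen-inducible Cre is driven from the Cx3cr1 locus, and 3 libraries of genotype Ythdf2fl/fl without Cre. Both groups thus carry the floxed Ythdf2 alleles, and they differ in Cre at the Cx3cr1 locus as well as in the intended loss of Ythdf2, a reader of N6-methyladenosine that sends mRNA to decay. Age, tamoxifen dosing and whether libraries come from separate animals go unstated in the labels, so a p-value here reflects just the variation among these 5 libraries, which may be technical. Level is given throughout as CPM, a gene's reads relative to the scaled total of its library.

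The 20S core of the proteasome is a barrel of alpha and beta rings in which the beta subunits PSMB5, PSMB6 and PSMB7 cut proteins, and the 19S cap recognises ubiquitin and unfolds the substrate with a ring of ATPases. Interferon induces the beta subunits PSMB8, PSMB9 and PSMB10, which take the places of PSMB5, PSMB6 and PSMB7 in new cores, together with PSME1 and PSME2, which form the PA28 alpha-beta activator. This immunoproteasome shapes the peptides that reach MHC class I, and macrophages and microglia make it also at rest.

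The libraries held 13947500 to 19577217 gene reads, of which the 47 genes took 0.329% and 0.338% in the 2 libraries labelled knockout, compared with 0.387% to 0.434% in the controls. Ythdf2 was not lower in the libraries labelled knockout, at 103.5 and 127 CPM compared with 57.0 to 69.2 CPM in the controls, so a direction below is drawn from labels that the gene's level goes against; a count over all exons does not test the deletion. All 10 microglia markers listed were detected in 1 or more libraries, with summed levels of 3452 and 4224 CPM compared with 5631 to 6927 CPM in the controls. Of the 10, 4 were lower and 1 (Tmem119) higher at an unadjusted edgeR p under 0.05, against 6.68% of all genes in either direction. Cx3cr1, the Cre locus, was at 337 and 97.7 CPM compared with 682, 992 and 681 CPM. Tmem119, at 34.1 and 13.7 CPM compared with 11.1, 7.03 and 5.35 CPM, and P2ry12, at 25.2 and 32.5 CPM compared with 9.24, 8.81 and 23.0 CPM, lay above every control, and Siglech was at or below 1.204 CPM in all libraries. Markers of T, B and NK cells, which also make immunoproteasomes, were near 0, with Cd3e, Cd3d and Nkg7 at 0 reads in every library and list sums of 0.119 and 0.324 CPM compared with 0.0628 to 0.149 CPM. The summed level of 6 choroid plexus markers was 157 and 220.4 CPM compared with 7.48 to 26.5 CPM, that of 5 monocyte markers 54.5 and 23.4 CPM compared with 3.52 to 6.84 CPM, that of 5 fibroblast and mural markers 11 and 4.70 CPM compared with 25.6 to 93.1 CPM, and that of 4 cycling-cell markers 1150 and 236 CPM compared with 82.3 to 273 CPM. Most of the monocyte sum under the knockout label was Ace, at 38.5 and 13.1 CPM, and Spn, at 15.2 and 8.32 CPM. Ccr2 in the same list overlapped between groups, and Ly6c2 and Plac8 were at or below 0.1081 CPM in every library. Border macrophage markers (5) summed to 486 and 1694 CPM compared with 329 to 684 CPM. Dendritic cell markers (5) summed to 2.56 and 3.68 CPM compared with 3.94 to 6.02 CPM. Oligodendrocyte markers (4) summed to 10990 and 4175 CPM compared with 9745, 8579 and 1036 CPM. The highest sum was in the library labelled knockout 1 and the lowest in control 3. These sums exceeded those of the microglia markers in the library labelled knockout 1 and controls 1 and 2, but not in the others. In these lists other than that of T, B and NK cells, 0 markers were at 0 in every library. The part of these other cells in the values below was not tested. In bulk RNA, fewer cells of a type and less RNA per cell cannot be told apart.

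The upstream sequences of a constitutive catalytic pair and of an inducible gene are shown because these genes stand on either side of the comparison. They are the bases before the RefSeq start (GRCm38.p6) that lie in no annotated exon, with matches to TGACNNNGC, the core of the antioxidant response element that NRF1 and NRF2 bind, in capitals. Psmb5 lies on the minus strand at chr14:54618023-54618245, Psmb6 on the plus strand at chr11:70525107-70525356, and Psme2 on the minus strand at chr14:55591114-55591351.
Psmb5: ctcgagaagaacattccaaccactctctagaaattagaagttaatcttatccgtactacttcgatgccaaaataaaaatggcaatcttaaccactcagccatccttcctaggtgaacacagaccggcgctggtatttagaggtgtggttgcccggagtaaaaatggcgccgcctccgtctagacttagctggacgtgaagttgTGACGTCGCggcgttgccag
Psmb6: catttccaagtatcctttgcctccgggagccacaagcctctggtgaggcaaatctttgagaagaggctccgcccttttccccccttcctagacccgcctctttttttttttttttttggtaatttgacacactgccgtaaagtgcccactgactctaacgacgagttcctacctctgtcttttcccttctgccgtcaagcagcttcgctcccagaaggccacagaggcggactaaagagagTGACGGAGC
Psme2: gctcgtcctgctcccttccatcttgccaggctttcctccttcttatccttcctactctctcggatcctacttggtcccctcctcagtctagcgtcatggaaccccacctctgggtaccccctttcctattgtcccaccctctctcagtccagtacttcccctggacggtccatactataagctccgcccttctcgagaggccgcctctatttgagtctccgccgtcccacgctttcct

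Of the 250 bases before each start, 32851 windows in all, 10.2% hold TGACNNNGC on either strand. Among constitutive subunits 4 of the 25 with a window did (Psmb5, Psmb6, Psmc6 and Psmd12), and among the 5 immunoproteasome genes 0. The STAT-like letters TTCNNNGAA, held by 7.02% of windows, were found in Psmb8 alone of those 5, as TTCCCAGAA at 97 to 89 bases before the start, and GAAANNGAA, the letters of an interferon regulatory factor site, held by 7.13%, in 0 of the 5. GAAANNGAA was found before Psmb3 and Psmd4 among the 25, and TTCNNNGAA before 0 of them. All 250 bases of the Psmb8 and Psmb9 windows lie in annotated exons, as do 139 of those before Psme1. A window there may miss the promoter, so a missing match does not show that the promoter lacks the site. The Psmb8 match likewise lies in exon sequence. These matches describe letters in a window and say nothing of binding.

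Proteasome genes were lower in the libraries labelled knockout as a set, by small amounts, and no gene passed the test alone. The comparison is of 2 libraries against 3, and the 47 genes, read in the same libraries, are not independent observations. The fold change was below 0 on the log2 scale for 45 of 47 genes (95.7%), against 48.9% of the 12543 genes tested, and the median was -0.34 against 0.01. Both libraries labelled knockout lay below all 3 controls for 18 of 47 genes, and above all of them for 0 of 47; over all genes tested these shares were 10.4% and 9.85%. In edgeR's quasi-likelihood test 0 of 47 genes had an adjusted p under 0.05 (0.0% of all genes), with a smallest adjusted p of 0.596, and 5 of 47 had an unadjusted p under 0.05, against 6.68% of all genes. DESeq2 called 0 of 47 (1.68% of all genes), with a smallest adjusted p of 0.473, and limma-voom 0.

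**Figure D1:**
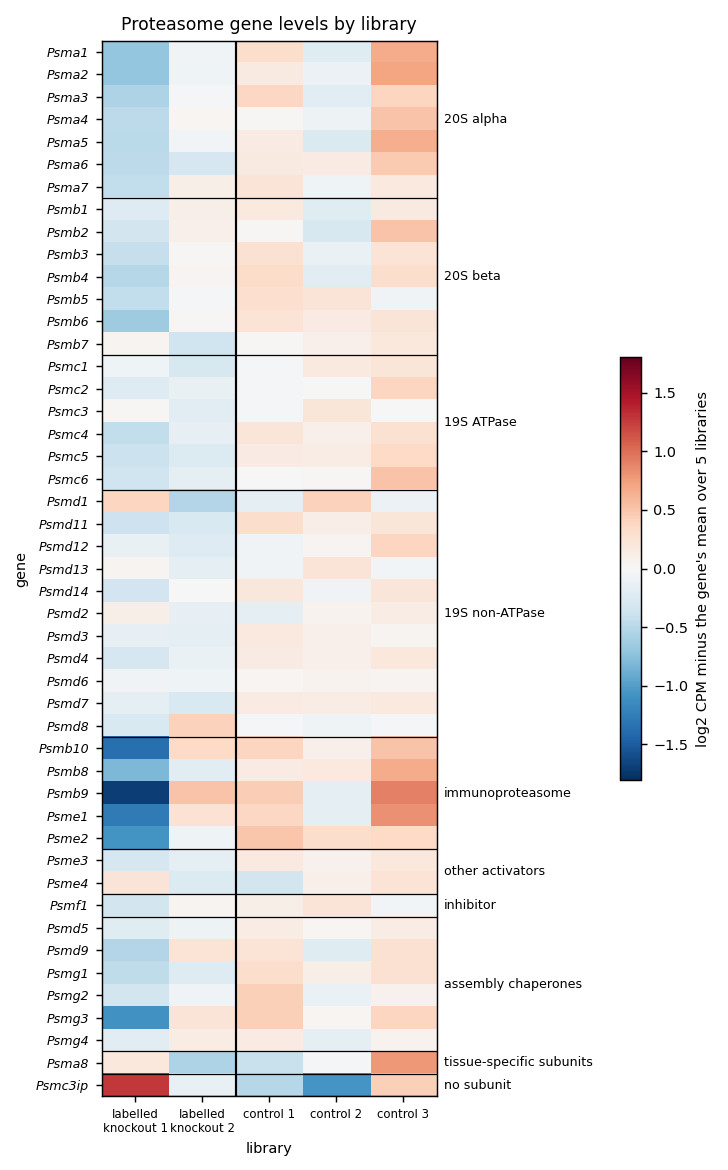
Level of 47 proteasome genes (rows, by role) in 5 libraries (columns) as log2 CPM less the gene's average; blue is below and red above that mean. The library labelled knockout 1 is lowest for 34 of 47 genes and control 3 highest for 27, and the immunoproteasome rows are the deepest blue in the first column.

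Single libraries carried much of the spread. The library labelled knockout 1 held the lowest level for 34 of the 47 genes and the library labelled knockout 2 for 10, while control 3 held the highest for 27. Without the library labelled knockout 1 the fold change stayed below 0 for 41 of 47 genes with a median of -0.26, and without the library labelled knockout 2 for 42 with a median of -0.49. Across all genes, library levels also moved with transcript length: at 1000 bases the trend of all genes lay at -0.52 and 0.33 in the 2 libraries labelled knockout (1 and 2), compared with 0.24, -0.29 and 0.24 in controls 1 to 3, as log2 deviations from the gene's mean. With that trend removed, 43 of 47 genes had a fold change below 0, with a median of -0.24 against -0.05 over all genes.

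**Figure D2:**
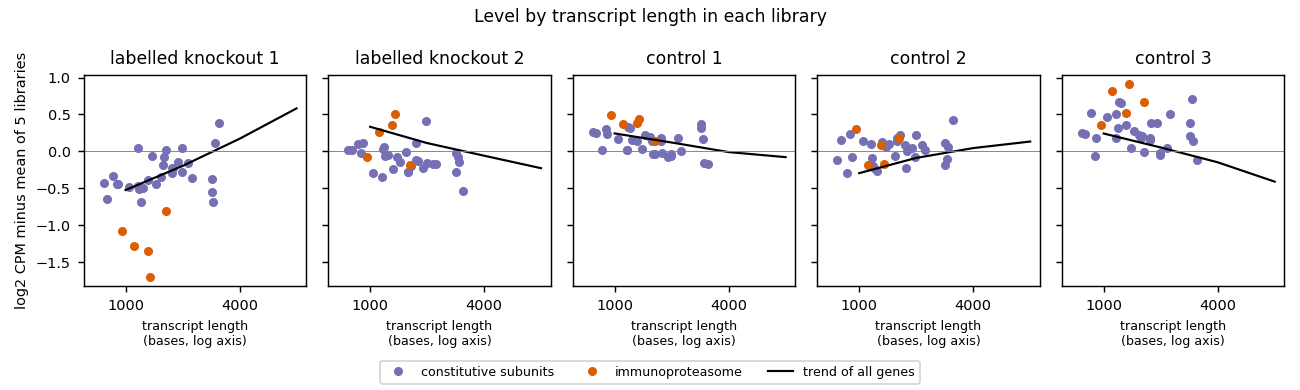
Log2 CPM less the gene's average over 5 libraries (vertical axis) against transcript length in bases (log axis), for 31 constitutive subunits and 5 immunoproteasome genes, with the trend of all genes tested as a black line. In the library labelled knockout 1 the constitutive subunits scatter about the line, which rises from -0.52 at 1000 bases to 0.58 at 8000 bases, and the immunoproteasome genes lie below it.

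The immunoproteasome genes showed the largest median difference of any role with more than 1 subunit gene, -0.70 against -0.33 for the 31 constitutive subunits of core and cap. All 5 were below 0, from -0.60 (Psmb10) to -0.88 (Psme2), and 2 of 5 did not overlap between groups, both with the controls higher, against 10.4% of all genes. The library labelled knockout 1 was lowest for all 5, and control 3 highest for 4. The median was -0.16 without the library labelled knockout 1, and -1.67 with the library labelled knockout 2 left out, so its size rested on the first. Their levels also varied more, with a median SD of log2 CPM over the 5 libraries of 0.77, against 0.29 for the constitutive subunits and 0.40 for all genes.

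Psmb8, the inducible chymotrypsin-like subunit, stood at 87.9 and 135 CPM under the knockout label and at 169.8, 174 and 243 CPM in controls 1 to 3. The groups did not overlap, with averages of 111.5 ± 33.5 CPM (SD, n = 2) under the knockout label and 196 ± 41.1 CPM (SD, n = 3) in controls. The log2 fold change was -0.81 (SE 0.297), with an edgeR adjusted p of 0.687 and an unadjusted p of 0.0351. It was -0.56 without the library labelled knockout 1, and -1.16 with the library labelled knockout 2 left out. Psmb8 lies on the plus strand of chromosome 17, from 34197721 to 34201454 (GRCm38, GENCODE M21), in the class II region of the MHC, and 498 bases of its exons overlap Gm20496 on the other strand.

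Psmb9, the inducible partner of the caspase-like site, was at 11.3 and 52.6 CPM compared with 50.2, 32.8 and 69.4 CPM in controls 1 to 3. The library labelled knockout 1 was far below the rest, and the other lay among the controls. Its log2 fold change of -0.67 (SE 0.666, edgeR adjusted p = 0.924) became 0.02 without the library labelled knockout 1, and -2.17 with the library labelled knockout 2 left out. Psmb9 lies on the minus strand of chromosome 17, from 34181987 to 34187764, and shares 212 exon bases with Tap1, the peptide transporter gene on the opposite strand, so reads of the 2 genes may mix if counting ignored strand.

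Psmb10, which replaces the trypsin-like subunit, was at 36.3 and 119.5 CPM compared with 121.5, 99.2 and 133 CPM in controls 1 to 3. Again the library labelled knockout 1 alone stood apart. The log2 fold change was -0.60 (SE 0.4975, edgeR adjusted p = 0.924), -0.01 without the library labelled knockout 1, and -1.70 with the library labelled knockout 2 left out.

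Psme1, the alpha chain of the interferon-inducible PA28 activator, was at 45.2 and 132 CPM compared with 142, 96.7 and 193 CPM in controls 1 to 3. The second library labelled knockout fell inside the control range. Its log2 fold change of -0.70 (SE 0.520, edgeR adjusted p = 0.913) was -0.16 without the library labelled knockout 1, and -1.67 with the library labelled knockout 2 left out. Psme2, the beta chain, was at 16.5 and 32.9 CPM compared with 49.2, 43.2 and 44.5 CPM, with both libraries labelled knockout below every control. The log2 fold change of Psme2 was -0.88 (SE 0.3345, edgeR adjusted p = 0.7015, unadjusted p = 0.0395), -0.50 without the library labelled knockout 1, and -1.47 with the library labelled knockout 2 left out. Of 50-base windows in Psme2 transcripts 28.3% also occur in other genes, most often in the retrocopy Psme2b, so its count is uncertain.

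**Figure D3:**
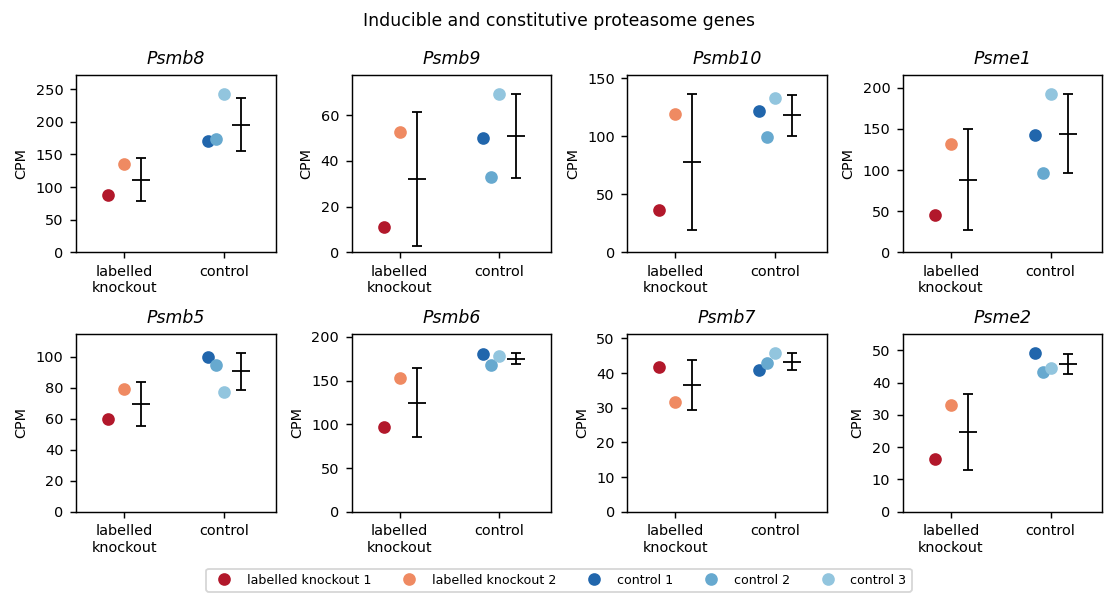
Level in CPM (vertical axis, from 0) of the 5 immunoproteasome genes and of Psmb5, Psmb6 and Psmb7 in each library (points, coloured by library), with the mean and SD of each group to the right of the points (n = 2 and n = 3). The groups are apart for Psmb8, Psme2 and Psmb6, and overlap for the other 5 genes.

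With all 5 libraries, the constitutive counterparts had smaller log2 fold changes. Psmb5, the chymotrypsin-like subunit, was at 59.6 and 79.3 CPM compared with 99.8, 94.7 and 77.1 CPM in controls 1 to 3, and overlapped through control 3. Its log2 fold change was -0.38 (SE 0.234, edgeR adjusted p = 0.877), and 54.1% of its transcript windows occur in other genes, chiefly the pseudogene Gm3375. Psmb6, the caspase-like subunit, was at 96.7 and 153 CPM compared with 179.9, 168 and 178 CPM, with both libraries labelled knockout below the controls (log2 fold change -0.49, SE 0.256, edgeR adjusted p = 0.865). Psmb7, the trypsin-like subunit, was at 41.6 and 31.5 CPM compared with 41.0, 43.0 and 45.8 CPM. For Psmb7 the library labelled knockout 2, not 1, was the lowest (log2 fold change -0.24, SE 0.2199, edgeR adjusted p = 0.924). Without the library labelled knockout 1 the log2 fold changes of Psmb5, Psmb6 and Psmb7 were -0.22, -0.23 and -0.49, and with the library labelled knockout 2 left out they were -0.60, -0.86 and -0.06. In the first case Psmb6 and Psmb7 were thus lower than Psmb9 (0.02) and Psmb10 (-0.01), the reverse of the order with all libraries. The third pair kept its order, with Psmb8 (-0.56) lower than Psmb5 (-0.22).

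Within a library, the ratio of an inducible subunit to the constitutive subunit it replaces does not depend on scaling. Psmb8 reads per Psmb5 read were 1.474 and 1.704 under the knockout label, beside 1.702, 1.838 and 3.154 in controls 1 to 3. Psmb9 reads per Psmb6 read were 0.117 and 0.3445 against 0.279, 0.195 and 0.391, and Psmb10 reads per Psmb7 read 0.873 and 3.79 against 2.965, 2.305 and 2.91. All 3 ratios overlapped between groups, and in each the library labelled knockout 1 was the lowest. For Psmb10 to Psmb7 the library labelled knockout 2 was the highest of the 5.

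On the log2 scale the ratios differed between groups by -0.44 (Psmb8 to Psmb5), -0.47 (Psmb9 to Psmb6) and -0.57 (Psmb10 to Psmb7), labelled knockout minus control. Two-sided exact permutation tests over the libraries gave p = 0.4, 0.6 and 0.8, each 0.8 after Benjamini-Hochberg adjustment over the 3 pairs, where the smallest p that 2 against 3 libraries allow is 0.2. Without the library labelled knockout 1 the differences of Psmb9 and Psmb10 were 0.31 and 0.49, and without the library labelled knockout 2 they were -1.25 and -1.63; that of Psmb8 stayed negative, between -0.60 and -0.16, with each library left out. Per kilobase of transcript, the inducible subunit stood at 0.814 to 1.74 of the constitutive level for Psmb8 and Psmb5, at 0.069 to 0.231 for Psmb9 and Psmb6, and at 0.772 to 3.36 for Psmb10 and Psmb7, over the 5 libraries.

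**Figure D4:**
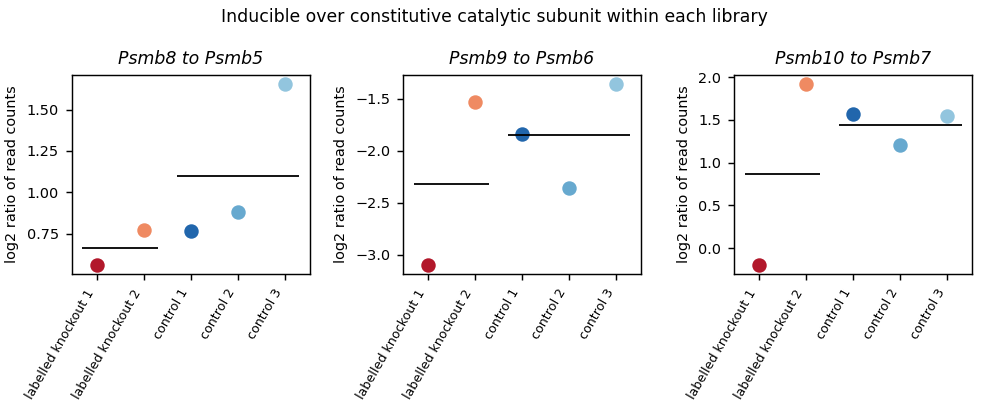
Log2 ratio of read counts of the inducible to the constitutive catalytic subunit (vertical axis) in each library (horizontal axis), with group means as lines. The library labelled knockout 1 is lowest in all 3 panels, at 0.56, -3.10 and -0.20; the library labelled knockout 2 lies among the controls in the panels of Psmb8 and Psmb9 and above them in that of Psmb10.

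Summed over genes, the 5 immunoproteasome genes had 7.69 reads per 100 reads of constitutive subunits in the library labelled knockout 1. The same figure was 16.9 in the library labelled knockout 2 and 17.1, 14.6 and 19.9 in controls 1 to 3. The mean log2 deviation of the 5 genes minus that of the 31 constitutive subunits was -0.95 and 0.28 under the knockout label, beside 0.25, 0.03 and 0.39 in the controls, a group difference of -0.56. It became 0.054 without the library labelled knockout 1, and -1.17 with the library labelled knockout 2 left out. The immunoproteasome genes thus stood apart from the constitutive subunits in a single library of the pair.

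Interferon-stimulated and class I genes, listed without the proteasome genes, had the same library at the bottom. The mean log2 deviation of the 20 interferon-stimulated genes was -2.12 and 0.40 under the knockout label, beside 0.22, -0.17 and 1.67 in controls 1 to 3, and that of 11 genes of class I peptide supply -1.13 and 0.31 against 0.15, -0.17 and 0.84. For the 5 immunoproteasome genes the same values were -1.24 and 0.17 against 0.37, 0.05 and 0.65. In all 3 lists the library labelled knockout 1 was lowest, control 2 next and control 3 highest. The oligodendrocyte markers ran the other way at both ends, with mean log2 deviations of 1.24 and -0.38 compared with 0.77, 0.73 and -2.35, and their part in these values was not tested. Tap1 was at 62.8 and 160.0 CPM compared with 175 to 330.0 CPM (log2 fold change -1.03, SE 0.504, edgeR adjusted p = 0.839). In edgeR 0 of the 11 and 0 of the 20 genes were called, with 0 in each at an unadjusted p under 0.05 and 0 called by DESeq2, every gene of both lists having a fold change below 0. The part of these genes' regulators in the proteasome values was not tested.

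The alpha subunits, which form the outer rings of the core and its gate, were all below 0, and the median log2 fold change of the 7 was -0.48. Psma6 had the smallest p of the 47 genes, at 65.9 and 74.7 CPM compared with 102.8, 101.7 and 127 CPM in controls 1 to 3. Its groups did not overlap, and each library labelled knockout was well below the lowest control. The log2 fold change was -0.65 (SE 0.211), with an edgeR adjusted p of 0.596, an unadjusted p of 0.0219 and a range of -0.74 to -0.54 with each library left out. Psma2 had the lowest fold change, -0.65 (SE 0.334, edgeR adjusted p = 0.8601), at 36.3 and 55.6 CPM compared with 65.7, 54.6 and 96.4 CPM, and it overlapped through control 2.

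Psma1, the most abundant alpha transcript in CPM, was at 58.8 and 90.95 CPM compared with 118, 81.6 and 151 CPM. Control 2 again lay inside the range of the libraries labelled knockout. Psma7, with the smallest difference of the alpha genes (log2 fold change -0.26, SE 0.247, edgeR adjusted p = 0.924), was at 60.1 and 88.4 CPM compared with 96.8, 77.9 and 92.7 CPM. The remaining alpha genes Psma3, Psma4 and Psma5 had log2 fold changes of -0.48, -0.37 and -0.48 and overlapped between groups; 11.6% to 49.1% of their transcript windows occur in other genes.

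The constitutive beta subunits had a median of -0.33 over 7 genes, all below 0 and 6 of them overlapping between groups. Psmb1, which has no catalytic site, showed the smallest difference, at 87.2 and 110.1 CPM compared with 116, 87.6 and 114 CPM (log2 fold change -0.10, SE 0.231, edgeR adjusted p = 0.956). Here the library labelled knockout 1 and control 2 were level. The structural subunits Psmb2, Psmb3 and Psmb4 had log2 fold changes of -0.22, -0.33 and -0.37.

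In the core as a whole, 13 of the 14 constitutive genes were lowest in the library labelled knockout 1. In the library labelled knockout 2, 3 of 14 lay below all controls. The shares of all genes with these orders are not given, so the counts describe these 14 genes alone. Their mean log2 deviation was -0.45 and -0.03 under the knockout label, beside 0.20, -0.08 and 0.37 in controls 1 to 3. The trend of all genes at 1000 bases, near the length of most of these transcripts, was -0.52 and 0.33 under the knockout label. In controls 1 to 3 it was 0.24, -0.29 and 0.24. The core mean thus lay near the trend in the library labelled knockout 1 and below it in the library labelled knockout 2. The part of transcript length in the core values was not tested. With the length trend removed the median log2 fold change of the 14 genes was -0.23, against -0.38 without that step, and all 14 stayed below 0. The median was -0.22 without the library labelled knockout 1 and -0.66 with the library labelled knockout 2 left out; the same values were -0.31 and -0.74 for the alpha genes and -0.15 and -0.57 for the beta genes.

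On average, the cap genes were lower in both libraries labelled knockout by like amounts. Single genes could differ, as with log2 deviations of 0.39 and -0.53 for Psmd1 and -0.27 and 0.41 for Psmd8. Over 17 genes the mean log2 deviation was -0.16 and -0.16 under the knockout label, beside 0.05, 0.10 and 0.17 in controls 1 to 3. Of the 17, 11 were below every control in both libraries (64.7%, against 2 of 14 core genes and 10.4% of all genes), and 16 had a fold change below 0. The median was -0.30, and it stayed between -0.36 and -0.24 with each library left out and was -0.21 after the length trend was removed. Whether cap and core genes differ was not tested.

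Of the 6 ATPases of the cap, which unfold substrates, 5 did not overlap between groups. All 5 had the controls higher, against 10.4% of all genes. Psmc5 was at 60.4 and 66.9 CPM compared with 87.7, 86.6 and 101.4 CPM in controls 1 to 3, with means of 63.6 ± 4.54 (SD, n = 2) and 91.9 ± 8.24 (SD, n = 3). Its log2 fold change was -0.53 (SE 0.196, edgeR adjusted p = 0.693, unadjusted p = 0.0361). Both libraries labelled knockout were low, and without either the value was -0.49 or -0.60. Psmc4 was at 61.1 and 75.3 CPM compared with 97.2, 89.0 and 101.3 CPM (log2 fold change -0.49, SE 0.203, edgeR adjusted p = 0.757). Psmc6 was at 49.3 and 56.0 CPM compared with 63.3, 64.4 and 89.9 CPM (-0.46, SE 0.243). In these genes every control exceeded both libraries labelled knockout.

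Psmc1 and Psmc2 had smaller gaps. Psmc1 was at 111.4 and 96.1 CPM compared with 114, 133 and 136 CPM, and Psmc2 at 78.3 and 83.7 CPM compared with 90.8, 91.9 and 119.8 CPM, with log2 fold changes of -0.30 (SE 0.201) and -0.32 (SE 0.2175). The nearest pair of libraries differed little in each. Psmc3, the most abundant ATPase transcript in CPM and the only overlapping member of the 6, was at 142 and 123 CPM compared with 137, 163 and 139.5 CPM (-0.15, SE 0.203).

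Among 11 other cap subunits, 6 did not overlap, all with the controls higher, against 10.4% of all genes. Psmd11, a lid subunit, was at 36.7 and 39.4 CPM compared with 59.5, 51.6 and 55.2 CPM in controls 1 to 3. The libraries within each group were close, and the log2 fold change of -0.54 (SE 0.195, edgeR adjusted p = 0.679, unadjusted p = 0.0324) ranged only from -0.59 to -0.48 with each library left out. Psmd7, a lid subunit that pairs with the deubiquitinase PSMD14, was at 66.4 and 62.1 CPM compared with 83.3, 82.8 and 85.0 CPM (-0.38, SE 0.181, edgeR adjusted p = 0.826). Psmd4, a ubiquitin receptor, was at 69.1 and 78.4 CPM compared with 93.8, 90.3 and 96.6 CPM (-0.34, SE 0.187). These genes, like Psmd11, had tight controls.

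Psmd3, a lid subunit, was at 105.8 and 104.6 CPM compared with 133, 125 and 122 CPM (log2 fold change -0.27, SE 0.183), and Psmd12, another, at 63.4 and 59.5 CPM compared with 66.4, 72.2 and 91.2 CPM (-0.32, SE 0.221). Psmd6 was separated by a narrow margin, at 64.5 and 63.9 CPM compared with 69.0, 70.4 and 69.6 CPM (-0.12, SE 0.178, edgeR adjusted p = 0.9395). Its levels were the steadiest of the 47 genes, with an SD of log2 CPM of 0.0653 over the 5 libraries.

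The other cap subunits overlapped between groups. Psmd8 was the sole subunit with a value above 0, at 184.5 and 297 CPM compared with 217, 211 and 220.2 CPM (log2 fold change 0.16, SE 0.2601, edgeR adjusted p = 0.9397), and its 2 libraries labelled knockout were the lowest and the highest of the 5. Without the library labelled knockout 2 it was -0.23, and without the library labelled knockout 1 it was 0.43. Psmd2, a scaffold of the cap base and the most abundant member in CPM, was at 399 and 335 CPM compared with 330.4, 384 and 405.5 CPM (-0.03, SE 0.225). Psmd1, the other scaffold, was at 197 and 104.2 CPM compared with 134, 201.4 and 139 CPM; here the library labelled knockout 1 and control 2 were the high pair. Psmd1 reached 0.31 without the library labelled knockout 2 and 0.14 without control 2, against -0.07 with all 5 libraries. Psmd13 and Psmd14, the latter the deubiquitinase itself, had log2 fold changes of -0.09 and -0.30.

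**Figure D5:**
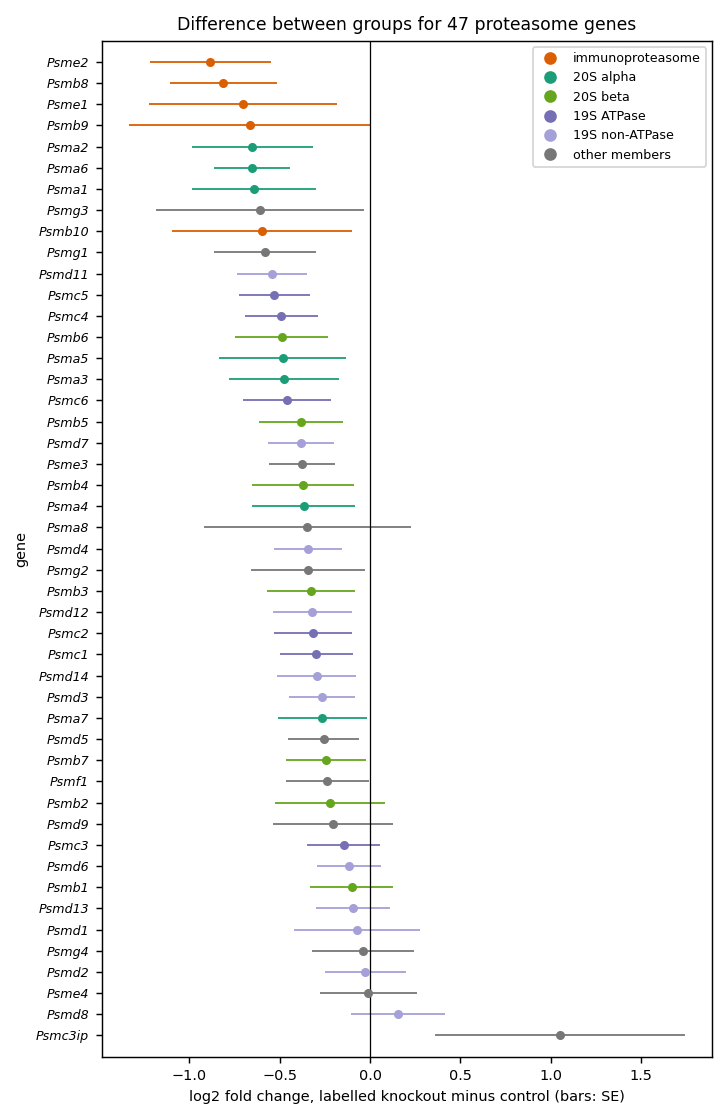
Log2 fold change (horizontal axis, labelled knockout minus control) with its SE for 47 proteasome genes (vertical axis, in order of the value), coloured by role. The 5 immunoproteasome genes lie among the 9 lowest values, between -0.60 and -0.88, and Psmd8 and Psmc3ip are the 2 genes above 0.

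Activators and inhibitors outside the interferon-inducible pair varied less. Psme3, which encodes the nuclear PA28 gamma activator, was at 62.2 and 68.5 CPM compared with 86.7, 81.0 and 87.0 CPM in controls 1 to 3, with no overlap (log2 fold change -0.38, SE 0.185, edgeR adjusted p = 0.839). Psme4, the PA200 activator, was at 148 and 106.8 CPM compared with 100.2, 134 and 150.1 CPM and spanned both groups (-0.01, SE 0.2675). Psmf1, the inhibitor PI31, was at 28.3 and 36.9 CPM compared with 38.7, 42.2 and 34.5 CPM (-0.24, SE 0.2300).

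Of 6 assembly chaperones measured, 2 did not overlap between groups, both with the controls higher, against 10.4% of all genes. All 6 had a fold change below 0, with a median log2 fold change of -0.30. Psmg1, a partner in the pair that builds the alpha ring, was at 7.91 and 9.30 CPM compared with 13.6, 11.8 and 13.2 CPM (-0.58, SE 0.284, edgeR adjusted p = 0.836). Psmd5, which holds cap ATPases before assembly, was at 31.4 and 34.5 CPM compared with 40.1, 37.7 and 40.3 CPM (-0.26, SE 0.197). Psmg3, with 13 to 39 reads per library, was at 0.773 and 2.11 CPM compared with 2.45, 1.84 and 2.38 CPM, and its low depth limits what can be seen. Psmg4 was at 11 and 13.8 CPM compared with 13.95, 11.2 and 13.2 CPM (-0.04, SE 0.2835), and Psmg2 and Psmd9 had log2 fold changes of -0.34 and -0.20.

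Psmd10, the chaperone gankyrin, had 0 reads in every library, and so did Psmb11, the thymus-specific subunit. If reads of these genes were counted like those of other genes, a 0 allows up to 3 reads in each library. The counts alone cannot tell a silent gene from reads left uncounted. Psma8, the testis alpha subunit, had 27 to 54 reads per library and stood at 2.62 and 1.51 CPM compared with 1.697, 2.22 and 4.01 CPM. Psmc3ip, no subunit, was at 4.64 and 1.68 CPM compared with 1.26, 0.824 and 2.53 CPM (log2 fold change 1.05, SE 0.691, edgeR adjusted p = 0.889), and it was 0.12 without the library labelled knockout 1.

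Levels per kilobase of transcript, averaged over the 5 libraries, differed among subunits that the particle holds in equal number. In the alpha ring they ran from 9.31 CPM per kilobase for Psma3 to 91.0 for Psma7, a 9.78-fold range. Constitutive beta genes ran from 35.0 for Psmb7 to 194 for Psmb6, and cap ATPases from 28.9 for Psmc6 to 86.1 for Psmc3. Immunoproteasome genes lay inside this span, from 32.0 for Psmb9 to 109.5 for Psme1, with Psmb8 at 99.5 beside 91.3 for Psmb5. These values rest on a single principal transcript length per gene, 2846 bases for Psma3 and 914 for Psma7. Before division by length the average of Psma3 was 26.5 CPM and that of Psma7 83.2 CPM. Transcript windows shared with other genes, 15.4% for Psma3 and 54.1% for Psmb5, also make the counts uncertain.

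Factors around the proteasome were taken from lists outside the symbol rule. Of 12 associated and assembly factors tested 0 were called by edgeR, 0 by DESeq2 and 0 had an unadjusted p under 0.05, with 8 below 0 and a median log2 fold change of -0.19. Pomp, which matures the core, was at 28.1 and 78.1 CPM compared with 97.6, 58.0 and 119 CPM (-0.78, SE 0.515), with the library labelled knockout 1 lowest. Adrm1, the ubiquitin receptor of the cap, was at 18.9 and 29.8 CPM compared with 43.2, 32.5 and 38.4 CPM (-0.64, SE 0.287, edgeR adjusted p = 0.793), with no overlap. Paaf1 had 0 reads in every library, which cannot be told from reads left uncounted.

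The NRF1 route, in which NGLY1 and DDI2 release the NRF1 factor that drives subunit genes, had 0 of 6 genes called by edgeR or DESeq2, 0 at an unadjusted p under 0.05 and a median of -0.14. Nfe2l1, which encodes NRF1, was at 334 and 278 CPM compared with 339.7, 417 and 359 CPM (log2 fold change -0.28, SE 0.226, edgeR adjusted p = 0.921), below every control by a small margin. Ddi2 was at 162 and 159 CPM compared with 126, 147 and 124 CPM (0.28, SE 0.193, edgeR adjusted p = 0.8985), above every control. Of 5 shuttle factors and 6 ubiquitin genes 0 were called by either tool, with 0 at an unadjusted p under 0.05. Their medians were -0.12 and -0.13. Ubqln2, a shuttle to the cap, was at 107.4 and 93.2 CPM compared with 79.8, 84.1 and 61.8 CPM (0.41, SE 0.2204).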

How the data were processed

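The deposited table holds raw whole-number counts per gene symbol for 5 libraries. Reads had passed through FastQC, STAR and HTSeq on mm10, per the submitters' processing notes; versions, annotation and strand setting are unstated there. Per the labels' protocols, RNA was taken up in Trizol and libraries prepared with a NEBNext kit whose name does not mark it as directional.

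Groups and replicate numbers follow the sample titles, with control 3 numbered by its library name. edgeR 4.0.16 (R 4.3.3) fitted all 12543 genes passing filterByExpr with TMM scaling, robust dispersion and the quasi-likelihood F test of version 4, two-sided, with Benjamini-Hochberg adjustment over all genes and calls at 0.05, on 3 residual degrees of freedom. The SE is the absolute log2 fold change over the square root of F. CPM uses TMM-scaled totals and log2 CPM a prior count of 2. All 47 genes passed the filter. Members, lists and tests were chosen with earlier results of these data known; the naming rule gives in full the immunoproteasome genes and counterparts, genes without overlap or with an unadjusted p under 0.05, and the extremes of each role.

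Principal transcript lengths, coordinates and exon overlaps came from GENCODE M21 (GRCm38), in which all 50 symbols were found, and promoters from RefSeq (GRCm38.p6). Alternatives were other scalings and filters, DESeq2 1.42.0, limma-voom (limma 3.58.1), a replicate block, each library left out, and, added after the data were seen, removal of a loess trend (span 0.3) on transcript length, available for 12490 genes. In simulated data of this comparison (12342 genes) edgeR recovered 0 of 67 genes at a 2-fold change, 18 of 65 at 4-fold and 42 of 65 at 8-fold, and 3 genes left as they were also passed. Some genes of the fixed lists are not reported here by name.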

Additional observations from a re-analysis of the deposited data

How the results depend on the processing

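No proteasome gene was called by edgeR, DESeq2 or limma-voom under any alternative run, with adjusted p of at least 0.199, the value of Psmb10 without the library labelled knockout 2. Over all genes the count of 0 became 232 in DESeq2 and 4 with a replicate block. The sample titles do not state a pairing, and 2 of the 3 controls share a number with a library labelled knockout. Deviations of the same-numbered pairs from their group means correlated at 0.15 and -0.56 across genes. With 2 libraries labelled knockout, the deviations of the first are the negatives of those of the second. The 2 correlations therefore cannot decide whether libraries were paired. With each library left out, the median log2 fold change ranged from -0.47 to -0.25 for constitutive subunits and from -1.67 to -0.16 for immunoproteasome genes. In these runs 19 to 40 members did not overlap between groups, a count that grows when an arm has fewer libraries. The share over all genes is not given for these runs, so the counts have no background to be read against. The immunoproteasome minus constitutive score ranged from -1.17 to 0.054, the log2 ratio difference of Psmb9 to Psmb6 from -1.25 to 0.31 and that of Psmb10 to Psmb7 from -1.63 to 0.49. Each was above 0 without the library labelled knockout 1 alone. The sign of the fold change was other than reported for at most 5 of 47 members under any alternative. In the simulated data, 0 of 67 genes at a 2-fold change were called by edgeR and 4 of 67 by DESeq2, which also called 61 genes with no change.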
